A study of Rattus norvegicus with 9 samples.

Results

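The S100 proteins and annexins were followed across adult life in a rat laryngeal muscle, the posterior cricoarytenoid, which draws the vocal folds apart. The members are 5 S100 genes (*S100a4*, *S100a10*, *S100a1*, *S100a8* and *S100a9*) and 5 annexin genes (*Anxa1*, *Anxa2*, *Anxa3*, *Anxa5* and *Anxa6*). They were taken by name, as every probe set whose only gene symbol in the platform annotation is one of these 10, and this gave 17 of the 8740 probe sets on the array, 8 for S100 genes and 9 for annexins, among 4736 genes with a symbol. The muscle was sampled at 6, 18 and 30 months of age, with 3 arrays per age, each hybridized with one RNA pool of 4 animals. The labels give no treatment and set the groups apart by age. The sources used here give neither strain nor sex. Errors and p-values below measure the variation between pools, and whole-muscle RNA cannot tell fewer cells of a type from less RNA per cell.

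S100 proteins are small calcium-binding proteins with a pair of EF-hand motifs, and most act as dimers that bind a target protein when calcium rises. Annexins bind negatively charged membrane lipids in the presence of calcium and take part in membrane repair, vesicle traffic and the anchoring of membranes to the cytoskeleton. The families meet in a complex of annexin A2 with S100A10. In muscle, S100A1 is the S100 protein of the myofibre and regulates calcium cycling, whereas S100A4, also called fibroblast-specific protein 1, is best known from fibroblasts and motile cells. S100A8 and S100A9 form the heterodimer calprotectin of neutrophils and monocytes.

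Upstream sequences are shown for *S100a4*, *Anxa1* and *Anxa2*, because these genes had mean signals below those at 6 months in both older groups on every probe set and have an entry in the RefSeq promoter table, which held 6 of the 10 members. Each line gives the 250 bases before the annotated start, 5′ to 3′, and capitals mark matches on either strand to TATAAA, the core of a TATA box, or to TGANTCA, the pattern bound by AP-1.
S100a4, GRCr8 chr2:178388279-178388528, plus strand: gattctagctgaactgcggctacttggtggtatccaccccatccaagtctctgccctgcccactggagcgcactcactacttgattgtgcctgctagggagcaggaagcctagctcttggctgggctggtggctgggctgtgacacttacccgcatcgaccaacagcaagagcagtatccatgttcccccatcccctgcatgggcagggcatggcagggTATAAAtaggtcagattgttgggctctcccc
Anxa1, GRCr8 chr1:227303733-227303982, minus strand: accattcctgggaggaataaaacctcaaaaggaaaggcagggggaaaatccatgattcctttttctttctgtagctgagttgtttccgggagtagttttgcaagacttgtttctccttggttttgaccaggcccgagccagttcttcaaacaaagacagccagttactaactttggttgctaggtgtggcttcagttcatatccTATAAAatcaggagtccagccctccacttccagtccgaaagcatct
Anxa2, GRCr8 chr8:78986002-78986251, plus strand: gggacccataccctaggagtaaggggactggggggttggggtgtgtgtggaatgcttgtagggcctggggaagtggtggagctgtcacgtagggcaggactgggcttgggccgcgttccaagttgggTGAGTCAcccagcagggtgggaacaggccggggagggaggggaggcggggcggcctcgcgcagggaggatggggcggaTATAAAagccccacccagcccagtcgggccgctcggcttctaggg
Each of these windows held 1 TATAAA, with its first base at position -31 in *S100a4*, -46 in *Anxa1* and -45 in *Anxa2*, counted back from the annotated start. The window of *S100a9* also held 1, and those of *Anxa3* and *Anxa5* held 0. TATAAA was found in 12.9% of the 33469 promoter windows of the same length. TGANTCA was found in 6.34% of those windows and, among the 6 members with an entry, in *Anxa2* alone, at position -123. The matches in *Anxa2* did not overlap. A match is a match of letters only. In the RefSeq gene order, *S100a8* and *S100a9* were direct neighbours, with 0 genes between them, and *S100a4* lay 3 genes from *S100a8*. *S100a1* and *S100a10* lay on the same chromosome.

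Values are MAS 5.0 signals, the linear intensity that the array software gives for a probe set. Of the 17 probe sets, 13 (from 7 genes) lay in the upper 60% by mean signal and were tested with limma, together with all other probe sets above that level. The other 4 (*S100a8*, *S100a9* and both probe sets of *Anxa3*) lay below it and are given as values. After Benjamini-Hochberg adjustment over 5244 probe sets, 0 of the 13 passed at an adjusted p under 0.05 in any comparison, and the F-test over the 3 ages also called 0 of 13. The comparison of 18 with 6 months called 0.0763% of all tested probe sets, that of 30 with 6 months 0.324%, that of 30 with 18 months 0.0191%, and the F-test 0.267%. Few probe sets of any kind passed, so 0 of 13 lies near the background. At an unadjusted p under 0.05, limma had 4 of the 13 at 18 against 6 months, all lower, and 4 at 30 against 6 months, all lower, where the lower share of all probe sets was 5.63% and 8.73%. It had 0 of 13 at 30 against 18 months, where 3.2% of all probe sets had such a p, and 3 of 13 in the F-test, where 8.92% had. The values below are therefore descriptions of levels, with the interval of each difference, and none is called a change.

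**Figure D1:**
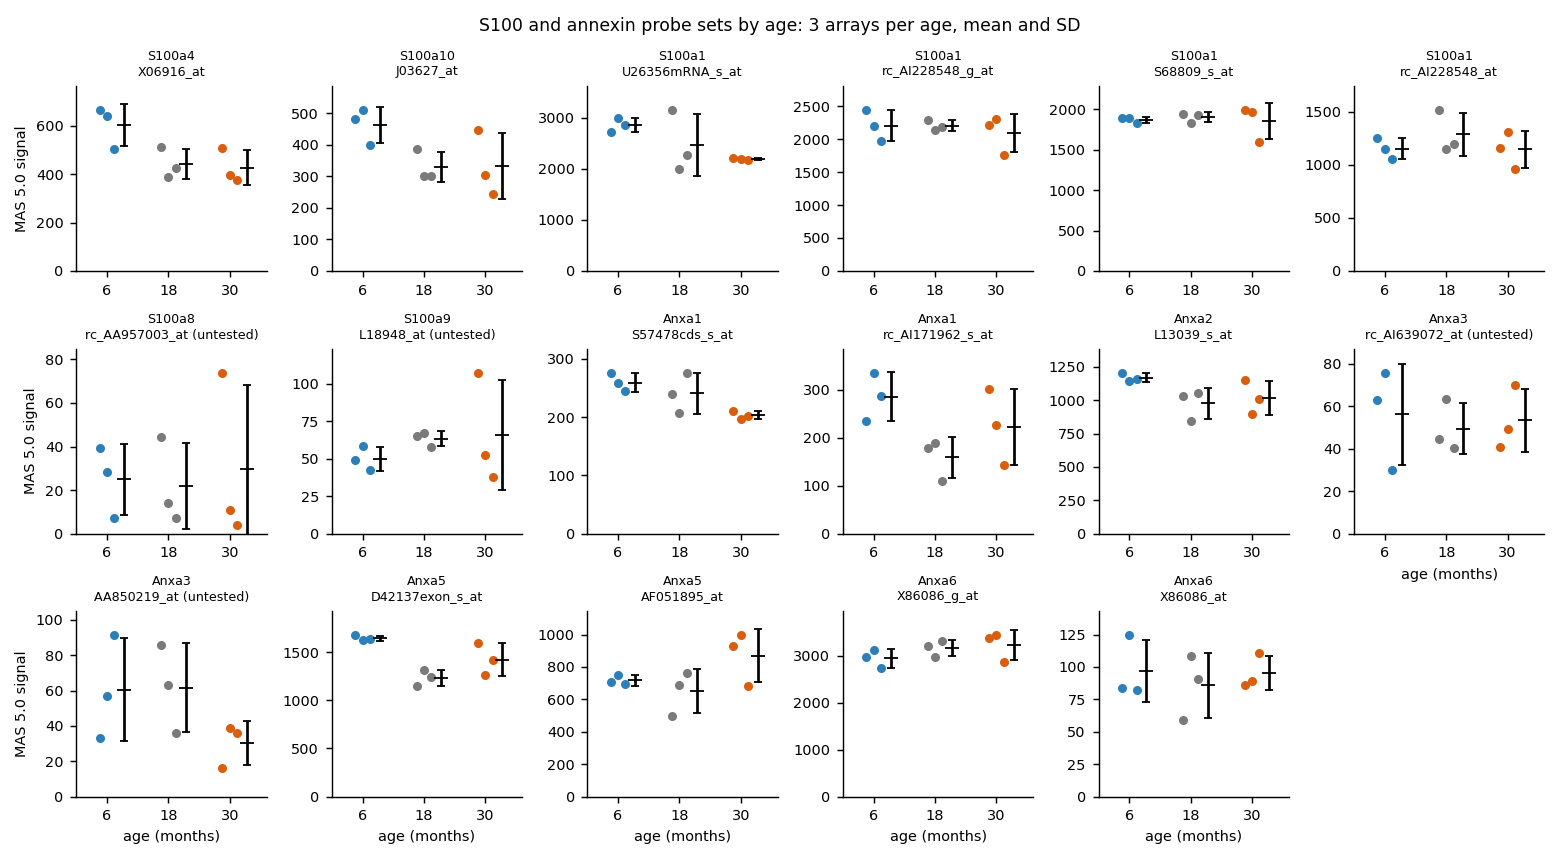
MAS 5.0 signal (linear, from 0) of the 17 S100 and annexin probe sets against age in months, with 1 point per array and, beside the points, the mean and SD of 3 arrays; bars are cut at 0. *S100a4* and *S100a10* lay highest at 6 months on average, with overlap between 30 and 6 months, while *Anxa6* on X86086_g_at lay highest at 30 months on average, at 3229 against 2942 at 6 months.

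*S100a4* encodes a calcium sensor that binds non-muscle myosin and is abundant in fibroblasts. Its signal was 666, 640 and 503 on the 6-month arrays, 512, 391 and 427 on the 18-month arrays and 509, 395 and 375 on the 30-month arrays. The older groups lay below 6 months except for their replicate 1 arrays, which passed the lowest of the 6-month arrays. The mean was 427 ± 72.3 at 30 months and 603 ± 87.7 at 6 months (SD, n = 3 arrays per age), 1.41-fold lower at 30 months. On the scale of log2(signal + 32) the difference was -0.47 with a standard error of 0.16 and a 95% interval from -0.83 to -0.11 (unadjusted p = 0.0161, adjusted p = 0.326, limma). At 18 months the mean was 443 ± 62.4, with a log2 difference from 6 months of -0.42 (adjusted p = 0.546). At 30 against 18 months the log2 difference was -0.05, with an interval from -0.42 to 0.31.

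*S100a10* encodes the partner of annexin A2, an S100 protein that has lost calcium binding and links annexin A2 to membrane proteins. It read 481, 511 and 400 on the 6-month arrays, 386, 302 and 302 on the 18-month arrays and 448, 305 and 246 on the 30-month arrays. All arrays of 18 months lay below all arrays of 6 months, but replicate 1 of 30 months did not. Probe sets whose 18-month arrays all lay below those of 6 months made up 8.35% of all tested. The mean was 330.0 ± 48.6 at 18 months and 464 ± 57.6 at 6 months, a log2 difference of -0.46 (SE 0.20, interval -0.90 to -0.01, adjusted p = 0.576). At 30 months the mean was 333 ± 104 and the log2 difference from 6 months -0.47 (interval -0.92 to -0.03, adjusted p = 0.366). That difference was -0.30 without replicate 3 of 30 months (unadjusted p = 0.165, limma) and -0.69 without replicate 1. RefSeq lists pseudogene copies of *S100a10* and of *Anxa2*, and whether the probes also bind their transcripts was not tested.

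*Anxa2* encodes the membrane-binding partner in that complex. Its signal was 1206, 1141 and 1160 on the 6-month arrays, 1034, 845 and 1050 on the 18-month arrays and 1149, 896 and 1005 on the 30-month arrays. The arrays of 6 months were close together, all of 18 months lay below them, and those of 30 months overlapped them. The mean was 976 ± 114 at 18 months and 1169 ± 33.6 at 6 months, a log2 difference of -0.26 (interval -0.55 to 0.04, adjusted p = 0.614). At 30 months it was 1017 ± 127, with a log2 difference from 6 months of -0.20 (interval -0.50 to 0.09, adjusted p = 0.521). Leaving out replicate 2 of the older age gave -0.16 at 18 months and -0.12 at 30 months.

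*S100a1*, whose protein binds the ryanodine receptor and the calcium pump of the sarcoplasmic reticulum, was measured by 4 probe sets that did not share one course. On U26356mRNA_s_at the signal was 2730, 3008 and 2864 on the 6-month arrays, 3159, 1991 and 2280 on the 18-month arrays and 2209, 2201 and 2179 on the 30-month arrays. The 30-month arrays lay close to each other and below every 6-month array, an arrangement found in 14.8% of all tested probe sets. The log2 difference between 30 and 6 months was -0.38 (SE 0.16, interval -0.73 to -0.02, adjusted p = 0.364). The other 3 probe sets gave log2 differences between 30 and 6 months of -0.08 (rc_AI228548_g_at), -0.02 (S68809_s_at) and -0.02 (rc_AI228548_at), and their ages overlapped. Their 95% intervals ran from -0.38 to 0.22, from -0.28 to 0.24 and from -0.36 to 0.33 in that order. Over the 9 arrays they read 1759 to 2444, 1596 to 1994 and 964 to 1517. At 18 against 6 months the log2 difference was -0.23 on U26356mRNA_s_at (adjusted p = 0.682; -0.09 without replicate 2 and -0.42 without replicate 1 of 18 months), and 0.01, 0.02 and 0.15 on the others. Arrays of 30 months lay wholly below those of 6 months on 1 of 4 probe sets, and 0 of 4 passed after adjustment.

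*S100a8* and *S100a9*, the calprotectin genes, had low signals. *S100a8* read 39.4, 28.3 and 7.2 on the 6-month arrays, 44.5, 14.2 and 7.2 on the 18-month arrays and 73.9, 11 and 4.2 on the 30-month arrays. *S100a9* read 48.9, 58.5 and 42.5 on the 6-month arrays, 65.5, 67.0 and 57.9 on the 18-month arrays and 107, 52.2 and 38.1 on the 30-month arrays. In both genes the highest of the 9 arrays was replicate 1 of 30 months, and the lowest was replicate 3 of 30 months, so that age spanned the other ages. In the fit without the signal filter, the log2 difference between 30 and 6 months was -0.01 for *S100a8* (SE 0.43) and 0.20 for *S100a9* (SE 0.23). Of 11 listed neutrophil markers, 4 were on the array and 0 lay above the filter. Their summed signal was 103 to 173 at 6 months, 91.6 to 145 at 18 months and 78.2 to 122 at 30 months, and replicate 1 was the highest array of 30 months here too. The lowest signal of the 4 (*Lcn2*, *Mmp8*, *Cxcr2* and *Defa5*) was 5.0. No value on the arrays was at or under 0, so a signal above 0 does not show that a transcript was present. Their part in the *S100a8* and *S100a9* values was not tested.

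*Anxa1*, whose protein is induced by glucocorticoids and limits leukocyte recruitment through formyl peptide receptors, had 2 probe sets with unlike courses. On rc_AI171962_s_at the signal was 235, 335 and 286 on the 6-month arrays, 179, 189 and 110.1 on the 18-month arrays and 301, 226 and 143 on the 30-month arrays. All 18-month arrays lay below those of 6 months, and the 30-month arrays spanned both. The mean was 159 ± 43.0 at 18 months and 285 ± 50.4 at 6 months, 1.79-fold lower at 18 months. The log2 difference was -0.74 (SE 0.25, interval -1.31 to -0.18, adjusted p = 0.479). By a rule of fold over 1.7 without overlap it was 1 of 13 members, beside 1.43% of all tested probe sets. This was the largest difference of any tested member probe set in these comparisons. On S57478cds_s_at the signal was 276, 259 and 244 on the 6-month arrays, 239, 207 and 277 on the 18-month arrays and 211, 197 and 201 on the 30-month arrays. Here the 30-month arrays, not those of 18 months, lay wholly below 6 months, with a mean of 203 ± 6.91 at 30 months and 260 ± 15.6 at 6 months (log2 difference -0.31, interval -0.58 to -0.04, adjusted p = 0.346). The log2 differences between 30 and 18 months were 0.39 on rc_AI171962_s_at and -0.21 on S57478cds_s_at.

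*Anxa5* encodes the annexin used to stain dying cells, which binds phosphatidylserine and forms repair lattices on torn membranes. On D42137exon_s_at the signal was 1672, 1624 and 1633 on the 6-month arrays, 1148, 1313 and 1236 on the 18-month arrays and 1592, 1258 and 1416 on the 30-month arrays. The 6-month arrays were tightly grouped and every array of 18 and of 30 months lay below them. The mean was 1232 ± 82.4 at 18 months and 1643 ± 25.5 at 6 months, a log2 difference of -0.41 (SE 0.12, interval -0.67 to -0.14). Its unadjusted p of 0.00655 was the lowest of the 13 probe sets in any comparison and ranked 74 of 5244 at that age, with an adjusted p = 0.431. The 30-month mean was 1422 ± 167, between the other ages. The other probe set, AF051895_at, read 706, 752 and 693 on the 6-month arrays, 499, 689.8 and 763 on the 18-month arrays and 932, 995 and 682 on the 30-month arrays. Its log2 difference between 30 and 6 months was 0.25 (interval -0.15 to 0.66), opposite in sign to the -0.21 of D42137exon_s_at (interval -0.48 to 0.05), and neither passed.

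*Anxa6* encodes the large annexin with a doubled core, found at the sarcolemma and sarcoplasmic reticulum of muscle. On X86086_g_at the signal was 2969, 3128 and 2729 on the 6-month arrays, 3213, 2973 and 3311 on the 18-month arrays and 3383, 3431 and 2872 on the 30-month arrays. The ages overlapped, and the log2 difference between 30 and 6 months was 0.13 (interval -0.13 to 0.39, adjusted p = 0.654). X86086_at, named for the same sequence record, read 58.7 to 124 over the 9 arrays, with a log2 difference between 30 and 6 months of -0.00 (interval -0.42 to 0.42). *Anxa3*, an annexin of neutrophils and of angiogenic signalling, read 29.9 to 75.7 on rc_AI639072_at and 16.2 to 91.2 on AA850219_at. On AA850219_at the mean was 30.5 ± 12.4 at 30 months and 60.5 ± 29.2 at 6 months, with overlapping ages.

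**Figure D2:**
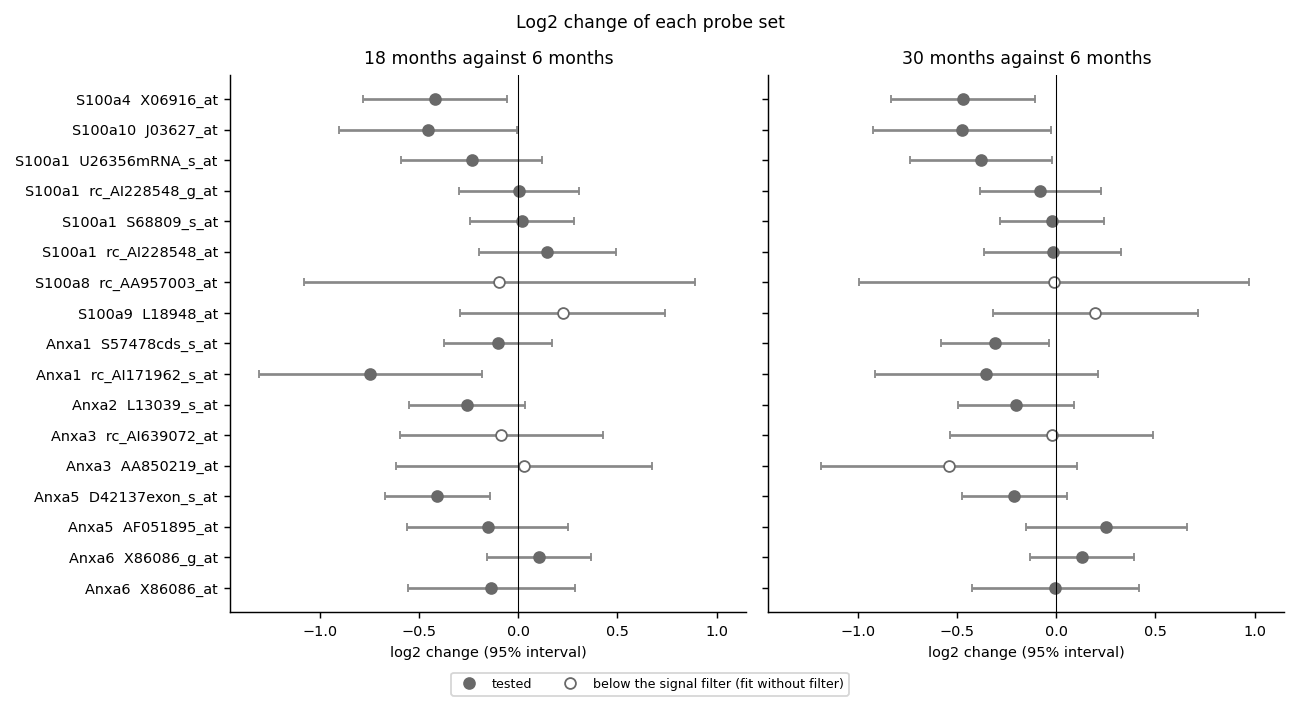
Log2 difference of each of the 17 probe sets at 18 months against 6 months (left) and 30 months against 6 months (right), with 95% intervals from limma; open points are the 4 probe sets below the signal filter, from the fit without it. The intervals of *S100a4* and *S100a10* lay below 0 in both comparisons before adjustment, and 0 of 13 tested probe sets passed after it.

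As a group, 9 of the 13 tested probe sets had a log2 difference below 0 at 18 against 6 months, with a median of -0.15, beside 57.7% and a median of -0.04 for all 5244 probe sets. At 30 against 6 months 11 of 13 were below 0, with a median of -0.20, beside 58.8% and a median of -0.05 for all. At 30 against 18 months 7 of 13 were below 0, with a median of -0.02, and the share for all was 54.1%. Probe sets of a gene are not independent. With 1 probe set per gene, the one of highest mean, 6 of 7 genes lay below 0 at 18 and at 30 months, and *Anxa6* was the exception at both. That count depends on the probe set taken. The other *S100a1* probe sets had 0.01, 0.02 and 0.15 at 18 months, and the other *Anxa5* probe set had 0.25 at 30 months. The share over all genes with 1 probe set each was not counted. Non-overlapping arrays below 6 months were seen in 4 of 13 probe sets at 18 months and 3 of 13 at 30 months, beside 8.35% and 14.8% of all, and in 0 of 13 above 6 months at either age, beside 5.32% at 18 months and 7.4% at 30 months. Between 30 and 18 months 0 of 13 probe sets were without overlap, beside 7.36% of all.

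Array by array, replicate 1 of 30 months held the highest 30-month signal for 10 of the 17 member probe sets, beside 34.9% of all tested, and replicate 3 of 30 months the lowest for 11, beside 31.1%. At 6 months replicate 3 held the lowest signal for 12 of 17, beside 32.1%. Replicate 1 was also the highest for 8 of 17 at 6 months and for 8 of 17 at 18 months, beside 38.7% and 41% of all. At 6 months replicate 2 was the highest for 8 of 17 as well, beside 30.1% of all. The counts take in the 4 member probe sets below the signal filter, while the shares cover tested probe sets only. Member probe sets of a gene share their source, and these counts carry no test.

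Some member pairs are described here without a test, because they were chosen with their values or their known partnership in view, and the points share array, scaling and RNA pool. *S100a4* and *S100a10* had a Pearson r of 0.949 and a Spearman rho of 0.917 over the 9 arrays. Without replicate 3 of 30 months and replicate 1 of 6 months, the arrays farthest from the *S100a4* median, r was 0.958, and with age means removed it was 0.907. *S100a10* and *Anxa2*, whose proteins form the complex, had r = 0.739 and rho = 0.767, with r = 0.848 without the 2 farthest arrays and 0.523 with age means removed. *S100a8* and *S100a9* had r = 0.763 and rho = 0.728. Their r was 0.312 without replicate 1 of 18 and of 30 months, and 0.845 with age means removed over all 9 arrays.

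The signals were then set against *Col1a1*, the gene of the collagen α1(I) chain and a fibroblast product, on the same arrays. *Col1a1* (M27207mRNA_s_at) read 3139, 3153 and 2402 on the 6-month arrays, 1450, 1080 and 1591 on the 18-month arrays and 1385, 1199 and 1007 on the 30-month arrays. The arrays of 6 months stood apart from the other 6, so a correlation over all 9 mixes that gap with the spread inside the ages. Over 9 arrays *S100a4* had r = 0.906 (exact permutation p = 0.00107) and rho = 0.850 (exact permutation p = 0.00607). Adjusted over the 5243 other tested probe sets, the exact permutation p of its r was 0.125 and that of its rho 0.255, so neither passed. Of the 13 tested member probe sets 0 passed by r in this way, beside 0.229% of all, and 5 had an unadjusted exact permutation p under 0.05, beside 15.2% of all. Adjusted over the 17 member relations, the exact permutation p was 0.0183 for r of *S100a4*, which was 1 of 17 to pass by r, and 0.0468 for its rho. The members were chosen with earlier results known, so that adjustment is no independent support. *S100a10* and *Anxa1* on S57478cds_s_at had rho = 0.833 each, with an exact permutation p adjusted over 17 relations of 0.0468 each. By rho, 3 of 17 relations therefore passed. Without replicates 1 and 2 of 6 months, the farthest from the median, *S100a4* had r = 0.713 over 7 arrays (exact permutation p = 0.0593), so the pooled relation rested in part on those arrays. The pass of *S100a4* by r among 17 relations also ended without replicate 2 of 18 months (adjusted exact permutation p = 0.0818), replicate 2 of 30 months (0.0666) or replicate 3 of 30 months (0.0953), and without replicate 1 or 2 of 6 months (0.0729 each).

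Without the arrays of 6 months, and also inside the ages, the relation kept its sign for *S100a4* but did not pass. Over the 6 arrays of 18 and 30 months, with the difference between these ages left in, r was 0.719 (exact permutation p = 0.128, adjusted 0.314). The rho was 0.829 (exact permutation p = 0.0583). Over the 4 arrays left without the 2 farthest, r was 0.951, given without a test. As deviations from age means over 9 arrays it was 0.804 (exact permutation within ages p = 0.0370, adjusted 0.157). The smallest p that 216 arrangements within ages allow is 0.00463. *S100a10* had r = 0.823 over 9 arrays (exact permutation p = 0.00813, adjusted 0.0691), 0.602 over the arrays of 18 and 30 months and 0.697 within ages. *Anxa2* had 0.772, 0.599 and 0.657, and *Anxa1* on S57478cds_s_at 0.796, 0.824 and 0.812, for the same 3 measures. The other *Anxa1* probe set had 0.542, -0.095 and 0.102. *Anxa6* on X86086_g_at had -0.253 over 9 arrays and 0.869 within ages (exact permutation within ages p = 0.0139, adjusted 0.157). In all, 14 of 17 probe sets had a positive r over 9 arrays and 13 of 17 within ages. Of the 13 tested, 11 had a positive r over 9 arrays and 11 within ages, beside 59.2% and 52.8% of all tested probe sets. Within ages 4 of 13 had an unadjusted exact permutation p under 0.05, beside 5.17% of all, and 0 of 17 passed within ages or over the 6 older arrays after adjustment.

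**Figure D3:**
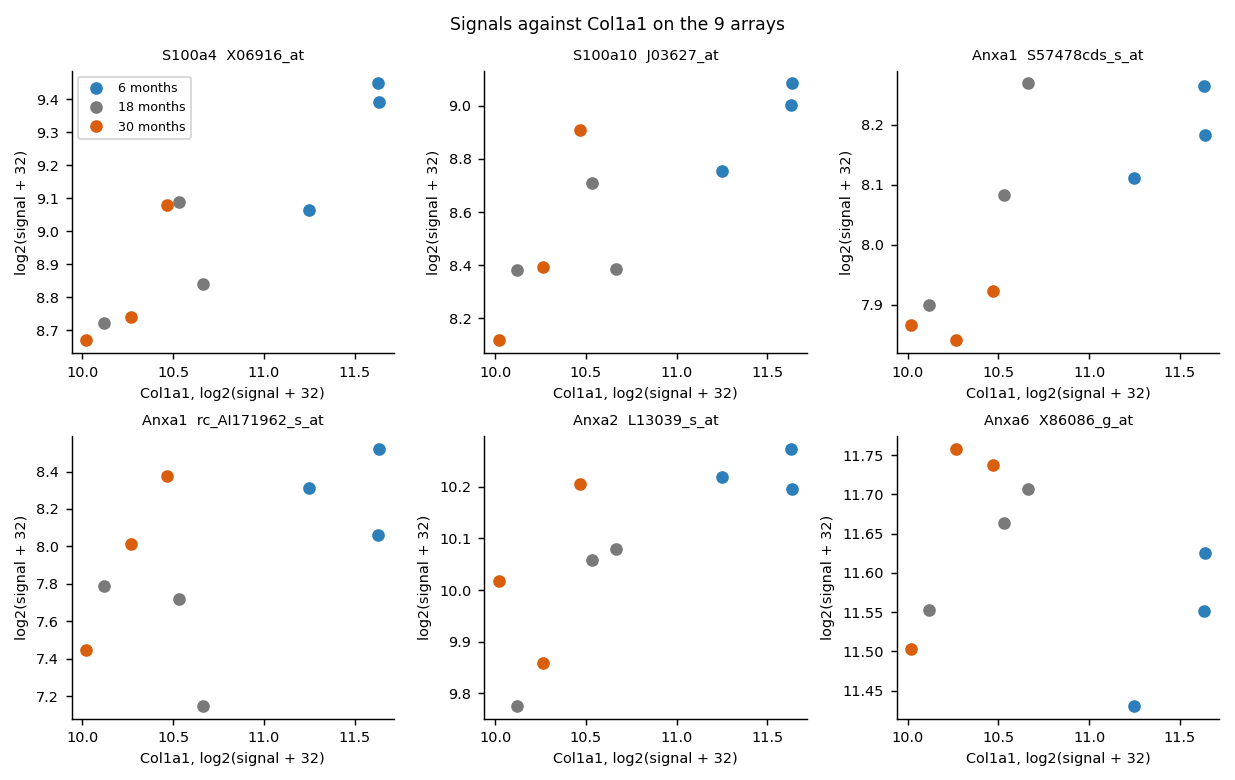
Log2(signal + 32) of 6 member probe sets (vertical) against that of *Col1a1* (horizontal), with 1 point per array coloured by age. The 6-month arrays stand apart on the horizontal axis. *S100a4* (r = 0.906) and *S100a10* (r = 0.823) rise along it, and *Anxa6* on X86086_g_at (r = -0.253) does not.

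The genes most like each leading member were ranked by Pearson r over the 9 arrays among 3162 other tested genes, as a description. For *S100a4* these were the fibronectin gene *Fn1* (r = 0.956), *S100a10* (0.949) and the type III collagen gene *Col3a1* (0.931), and *Col1a1* ranked 12. For *S100a10* they were *Tspo* (0.963), which encodes a mitochondrial outer-membrane protein, *S100a4* (0.949) and *Fn1* (0.912), and *Col1a1* ranked 37. For *Anxa2* they were *Postn* (0.966), which encodes the matrix protein periostin, *Edem3* (0.941) and *Eif3m* (0.935). For *Anxa1*, on S57478cds_s_at, they were *Cd14* (0.969), a lipopolysaccharide co-receptor of monocytes, *Svs3a* (0.955) and *Ppp2r2c* (0.952). For *Anxa1* and *Anxa2*, *Col1a1* ranked 106 and 122. With age means removed, r was 0.882 for *Fn1* and *S100a4*, 0.949 for *Tspo* and *S100a10*, 0.937 for *Postn* and *Anxa2* and 0.925 for *Cd14* and *Anxa1*. The genes were ranked on these same arrays, so high values here are no independent support.

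The summed signal of fibroblast markers was also highest at 6 months. Of 10 listed, 9 were on the array and tested. At 30 against 6 months 9 of 9 had a log2 difference below 0 and 4 fell past the threshold, *Col1a1* (-1.25), *Col1a2* (-1.35), *Col3a1* (-1.42) and *Col5a2* (-1.05). At 18 against 6 months 8 of 9 were below 0 and 1 fell, *Col1a2* (-1.11). The *Col1a2* signal was 1086 to 1365 on the 6-month arrays and 436 to 497 on those of 30 months. The calls did not hold in every fit with fewer arrays, and such a fit also has less power. At 30 against 6 months limma called 0 of all tested probe sets when the 6-month replicate 2, the 30-month replicate 2 or the 30-month replicate 3 was left out. It called 16 when only the arrays of both ages were fitted. At 18 against 6 months it called 0 when the 6-month replicate 2 or the 18-month replicate 3 was left out, and 0 when only the arrays of both ages were fitted. The summed signal was 17423 to 22091 at 6 months, 12603 to 13804 at 18 months and 14018 to 14280.0 at 30 months, so neither older group overlapped 6 months. None was at 0, and neither was any other value on the arrays. The proteoglycan gene *Dcn* had a log2 difference of -0.095 and *Thy1* of -0.11 at 30 against 6 months, and neither passed. *Dcn* had the highest mean signal of the list, at 9919 at 6 months and 9266 at 30 months. Over the same ages *Col1a1* went from 2898 to 1197 and *Col3a1* from 2766 to 1004. The differences of *Pdgfra* (-0.167), *Lum* (-0.438) and *Fn1* (-0.807) at 30 against 6 months did not pass. The part of fibroblast content in the *S100a4*, *S100a10*, *Anxa1* and *Anxa2* values was not tested. Skeletal muscle markers, 10 of 10 tested, all had log2 differences above 0 at both older ages, with a median of 0.22 at 18 and 0.26 at 30 months, and 0 passed. Their summed signal was 150312 to 171620 at 6 months, 172388 to 210544 at 18 months and 179925 to 195302 at 30 months, above 6 months in every array. The labelled tissue was matched by the actin gene *Acta1*, at 27892 to 38746 over the 9 arrays, and the creatine kinase gene *Ckm*, at 33084.5 to 48487.6.

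**Figure D4:**
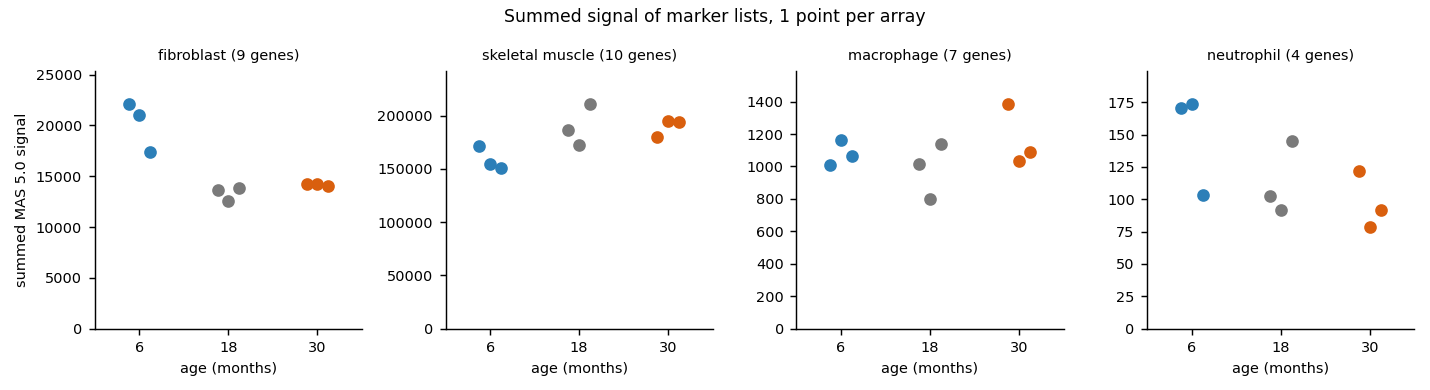
Summed MAS 5.0 signal (linear, from 0) of 4 lists of cell type markers against age in months, with 1 point per array. The fibroblast sum was 12603 to 14280.0 at 18 and 30 months, below its 17423 to 22091 at 6 months, while the macrophage sum overlapped between ages.

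Markers of other cell types gave a mixed picture. Of 10 macrophage markers 7 were on the array and 3 tested, with 0 called and sums of 1011 to 1164 at 6 months, 799 to 1137 at 18 months and 1032 to 1384 at 30 months. Replicate 1 of 30 months was the highest array for this list as for several members. *Lyz2* had the highest mean of the list at each age, at 563, 503 and 736. Log2 differences between 30 and 6 months were 0.38 for *Lyz2*, 0.44 for *Ptprc* and -0.59 for *Cd14*. Schwann cell markers (4 of 4 on the array tested, 0 called) summed to 2771 to 3285 at 6 months, 2451 to 2743 at 18 months and 2441 to 2719 at 30 months, with both older ages below 6 months. This followed *Pmp22*, since the sum of the other 3 genes was 605 to 760.4 at 6 months, 619 to 717 at 18 months and 607 to 665 at 30 months, with overlap. Cartilage markers (3 on the array, 0 above the filter) summed to 95.3 to 131 at 6 months, 66.2 to 102 at 18 months and 51.2 to 74.3 at 30 months, without overlap between 30 and 6 months. The part of these cell types in the member values was not tested. Lists for endothelium (3 tested), smooth muscle (4), adipocytes (4), epithelium (1), blood (2) and thyroid (1) had 0 genes called in any comparison, and their sums overlapped between 30 and 6 months. The thyroid gene *Tg* read 628 on replicate 3 of 18 months and 555 on replicate 3 of 30 months, against at most 109 on the other 7 arrays, so these pools stood apart in that gene. Its part in the member values was not tested.

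Genes that work with the members were followed from lists, of which only part is on this array. Of 9 other S100 genes 2 were on the array and 1 was tested, *S100b*, the S100 protein of Schwann cells. Its log2 difference between 30 and 6 months was 0.275, and it did not pass. Of 7 other annexins 2 were on the array and 1 was tested, *Anxa4*, at 0.13. Among 26 partners and receptors 16 were on the array and 8 were tested, with 0 called at any age. At 30 against 6 months 7 of these 8 lay above 0, with a median of 0.24, beside -0.05 for all probe sets, of which 58.8% lay below 0. The largest difference was that of *Plaur*, at 0.584 (unadjusted p = 0.0439, adjusted p = 0.371, limma). The 1 gene below 0 was *Cd44*, at -0.373. The calcium pump gene *Atp2a1*, whose product S100A1 binds, had 0.40 at 18 months (adjusted p = 0.431) and 0.30 at 30 months (adjusted p = 0.340) against 6 months. Glycogen phosphorylase, *Pygm*, had 0.25 at 30 months. Other EF-hand genes numbered 13 on the array and 10 tested of 21, with 0 called and a median of 0.06 at 30 against 6 months. Of these 10 genes 6 lay above 0 and 4 below. The 2 of highest signal, the muscle calcium buffer *Pvalb* and the troponin C gene *Tnnc2*, had 0.155 and 0.195. The largest difference in size was that of *Calb2*, at -0.617 (unadjusted p = 0.00195, adjusted p = 0.183, limma). Glucocorticoid-response genes, listed because *Anxa1* is induced by these hormones, were 5 tested of 11, with 0 called and a median of 0.05. The 2 of highest signal, *Glul* and *Dusp1*, had 0.001 and 0.053 at 30 against 6 months. In that comparison 4 of the 5 lay above 0 and 1 below, with the largest difference in *Sgk1*, at 0.395 (unadjusted p = 0.0406, adjusted p = 0.367, limma).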

How the data were processed

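Total RNA of posterior cricoarytenoid muscle, pooled from 4 animals per array, was hybridized to 9 Affymetrix Rat Genome U34 arrays, per the labels' protocols. The deposited values are MAS 5.0 signal intensity on a linear scale, computed by the authors with Affymetrix Microarray Suite 5.0, per the labels. The 2% trimmed mean was 500.868 to 500.968 on every array, so their global scaling was kept. Array medians were 120.1 to 124.8 at 6 months, 104.2 to 115.9 at 18 months and 105.0 to 112.3 at 30 months, so both older ages lay below 6 months. The fit as reported did not adjust for this. Detection calls were not used here. Precision is limited by there being 3 arrays per age.

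The table held 8799 rows, of which 59 controls were left out. Gene names came from the platform annotation (7006 probe sets with 1 symbol, 308 with several, 1426 with none), and 6985 gene IDs matched RefSeq GRCr8. Promoter sequences are from RefSeq. Signals were analysed as log2(signal + 32), a scale that understates the differences of low signals. Probe sets in the upper 60% by mean were tested, which left 5244 at a level of 6.60 or more. A model with a mean for every age took in the 9 arrays together (limma 3.58.1, functions lmFit and eBayes, R 4.3.3). Its two-sided p-values were adjusted over the tested probe sets (Benjamini-Hochberg, threshold 0.05). Exact permutation of single probe sets was not used, since 3 arrays against 3 allow no p below 0.1. Correlations used exact two-sided permutation of array pairings, adjusted over the 17 member relations and over all tested probe sets. The scripts were tested on simulated data.

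All member probe sets are named. The representative of a gene in lists is its probe set of highest mean, and genes of like pattern are the 3 with the highest Pearson r. From other lists, genes past the threshold or else the 2 of highest mean were to be named; further examples were chosen after their values were seen. The members and lists were chosen with earlier results of these data known. Alternatives were other pseudocounts, filters, normalization, prior variance, a replicate block, fewer arrays and a fold rule.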

Additional observations from a re-analysis of the deposited data

How the results depend on the processing

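The count of member probe sets past the limma threshold was 0 in all 3 comparisons and in the F-test under a smaller and a larger pseudocount, no filter, the upper 40% of probe sets, quantile normalization, a prior trend, robust eBayes and each fit without 1 array, and in the 3 comparisons with only the arrays of both ages. The lowest adjusted p of any tested member over the 3 comparisons and these settings was 0.202. The fold rule (over 1.7, without overlap) picked 1 of 13 at 18 against 6 months, *Anxa1* on rc_AI171962_s_at, beside 1.43% of all probe sets. With replicate number as a block the member count was also 0. Same-numbered arrays correlated at -0.02 to 0.261 in their deviations from age means, with 4 of 9 pairs over 0.1. Arrays of other number and age correlated at -0.205 to 0.149. The numbers were not taken as pairs in the fit as reported, although 8 of 9 arrays correlated best with an array of their own number. The permutations within ages took the arrays of an age as exchangeable, and a factor shared by number would break that.

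Over all probe sets tested in each setting (5244 in the fit as reported, more without the filter and fewer with the upper 40%), calls moved from 4 to between 0 and 8 at 18 against 6 months, from 17 to between 0 and 20 at 30 against 6 months, from 1 to between 0 and 4 at 30 against 18 months, and in the F-test from 14 to between 0 and 19; the fold rule picked 75, 117 and 33. The sign of the log2 difference turned in some setting for 3, 4 and 8 of 13 members in these 3 comparisons, all with a main difference of at most 0.154 in size. It held in every setting for *S100a4*, *S100a10*, *Anxa1* and *Anxa2* at 18 and 30 against 6 months. After quantile normalization the median of all probe sets was -0.00 and -0.01, and that of members -0.13 and -0.19, at 18 and at 30 against 6 months. In that setting 9 and 10 of 13 members lay below 0. The unadjusted p of *S100a10* was then 0.0713 and 0.0618 in these comparisons (limma), no longer under 0.05. For *Anxa1* on S57478cds_s_at it was 0.0787 at 30 against 6 months. For *S100a4* it was 0.0348 and 0.0204. The count of members correlated with *Col1a1* by Pearson r, adjusted over 17 relations, was 1, and 2 with the *Col1a1* probe set rc_AI231472_s_at, where *Anxa2* was added. It was 0 to 3 without 1 array and 0 with age means removed. Without the 2 farthest arrays it was 1, which was not *S100a4* but *Anxa3* on rc_AI639072_at, whose r was -0.935 there and 0.05 over 9 arrays.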
